A study of Arabidopsis thaliana with 16 samples.

Results

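The 5 genes AT3G28780, AT3G28790, AT3G28830, AT3G28980 and AT5G61720 of Arabidopsis thaliana were taken as a family of pollen transcripts that carry a domain of unknown function, DUF1216, and that had a high intensity in open flowers beside that in pollen. They are 5 of 14599 genes named here by a probe set of the ATH1 array that matches a single gene, and each is measured by 1 such probe set. The genes were chosen by their intensities in pollen and flowers, which are therefore given as a description with no test. The family name comes from the choice of the genes, since the annotation used here gives each of them a locus code with no description.

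All plants were of the ecotype Columbia, with no treatment or mutation named in the labels. The 16 arrays are 2 biological replicates each of root hairs (from seedlings of 4 to 5 days), mature pollen sorted by flow cytometry, open flowers, seedlings of 7 days, ovules, unpollinated pistils, siliques taken 2 weeks after bolting and rosette leaves. Root hairs were brushed free of frozen seedlings and their RNA went through 2 cycles of amplification, whereas the arrays of the other sample types come from earlier studies, so that for root hairs sample type and study cannot be told apart. Ovules and pistils come from a different earlier study than pollen, flowers, siliques, leaves and seedlings. The median intensity of all probe sets lay between 89.4 and 95.9 on the root hair and pollen arrays and between 203 and 252 on the others.

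Pollen is the male gametophyte of flowering plants, a vegetative cell that grows the pollen tube and encloses the sperm cells. It ripens inside the anthers, where the tapetum, a layer of the anther wall, feeds the developing grains, and an open flower therefore holds ripe pollen together with anther tissue, petals, sepals and the pistil. A domain of unknown function is a stretch of protein shared between family members for which no role was assigned when it was named, and no role is given here for any of the 5 proteins.

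All 5 genes had their highest intensity in pollen, their second highest in flowers, and values below the detection level on every array of the 6 other sample types. The detection level was set at 216, which is 3 times the pseudocount of 71.9 used on the log2 scale. It is a cut on intensity and not the detection call of the paper, which counts some genes below it as expressed. AT3G28780 had intensities of 4184 and 4541 in the pollen replicates (4363 ± 252, SD, n = 2) and of 1668 and 1734 in flowers (1701 ± 46.6). For AT3G28790 the pollen arrays read 5522 and 6225 (5874 ± 497), and the flower arrays 2856 and 3080 (2968 ± 158). In both genes each pollen array lay above each flower array, and the replicates were closer to each other than to the other sample type.

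AT3G28830 was measured at 10294 and 10920 in pollen (10607 ± 443) and at 5036 and 5281 in flowers (5159 ± 174). The pollen values of AT3G28980 were 6890 and 7086 (6988 ± 139), and its flower values 3619 and 3955 (3787 ± 237). AT5G61720, the member on chromosome 5, gave 6537 and 6381 in pollen (6459 ± 111) and 2972 and 2995 in flowers (2983 ± 16.4). Again no flower array reached a pollen array. Relative to the detection level, mean pollen intensity was 20.2-fold for AT3G28780, 27.2-fold for AT3G28790, 49.2-fold for AT3G28830, 32.4-fold for AT3G28980 and 29.9-fold for AT5G61720. Mean flower intensity was 7.88-fold the same level for AT3G28780 and 13.8-fold to 23.9-fold for the other 4 genes.

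**Figure D1:**
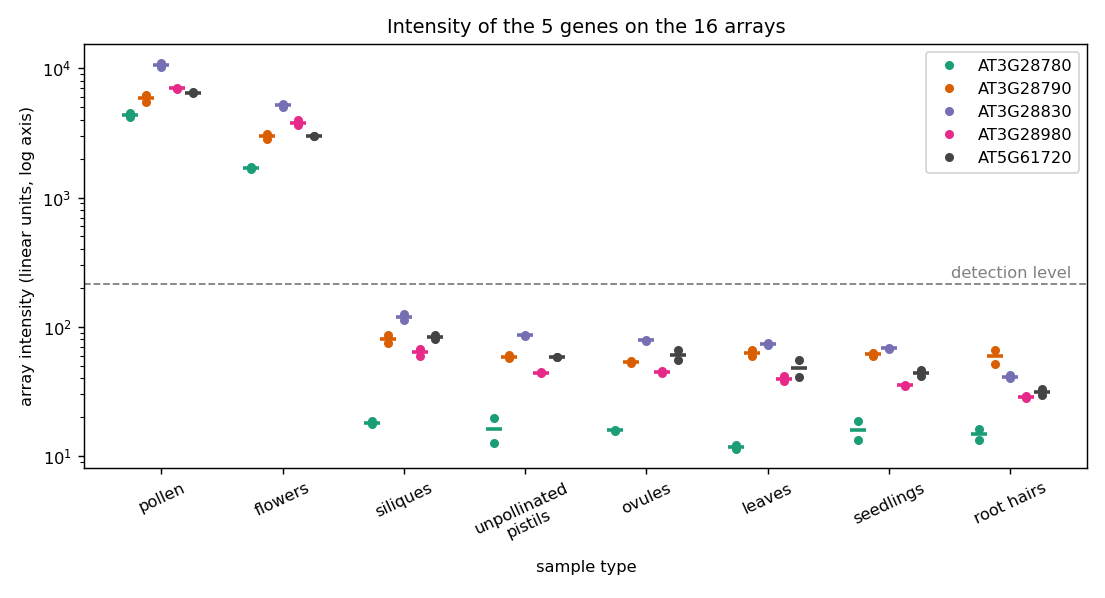
Array intensity of the 5 genes (log axis, linear intensity units) in the 8 sample types, with 1 point per array, a bar at the mean of the 2 replicates and a dashed line at the detection level of 216. Pollen and flowers lie above the line for all 5 genes, and all 60 values of the 6 other sample types lie below it, between 11.5 and 125.

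The intensity in flowers was 39.0% of that in pollen for AT3G28780, with a range of 36.7% to 41.4% over the 4 possible pairs of a flower and a pollen array. It was 46.2% for AT5G61720 (45.5% to 46.9%), 48.6% for AT3G28830 (46.1% to 51.3%), 50.5% for AT3G28790 (45.9% to 55.8%) and 54.2% for AT3G28980 (51.1% to 57.4%). AT3G28780 thus stood below the other 4, whose ranges overlapped between neighbours in this order. These percentages depend on how the arrays are scaled. After scaling the arrays to a common 75th percentile they were 12.3% to 17.1%, and after quantile normalization 41.9% to 92.9%. Since the samples are bulk RNA, the share of pollen in the flower, the RNA per pollen grain and transcript in other flower parts cannot be told apart.

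For comparison, 455 probe sets (2.00% of the 22746 tested) were at least 3 times the detection level in pollen and at least 8 times the highest mean of the 6 sample types other than flowers, and are called pollen-selective here. Their flower intensity was 11.3% of the pollen intensity in the median, with quartiles of 8.46% and 15.96% and a 95th percentile of 31.6%. The 5 genes ranked 4, 5, 7, 9 and 12 among them from the top, and their median of 48.6% was 4.31-fold that of the 455. After scaling to the 75th percentile the 5 genes again held ranks 4 to 12, whereas after quantile normalization their ranks ran from 2 to 37. As the genes were chosen for this ratio, their ranks are a description.

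**Figure D2:**
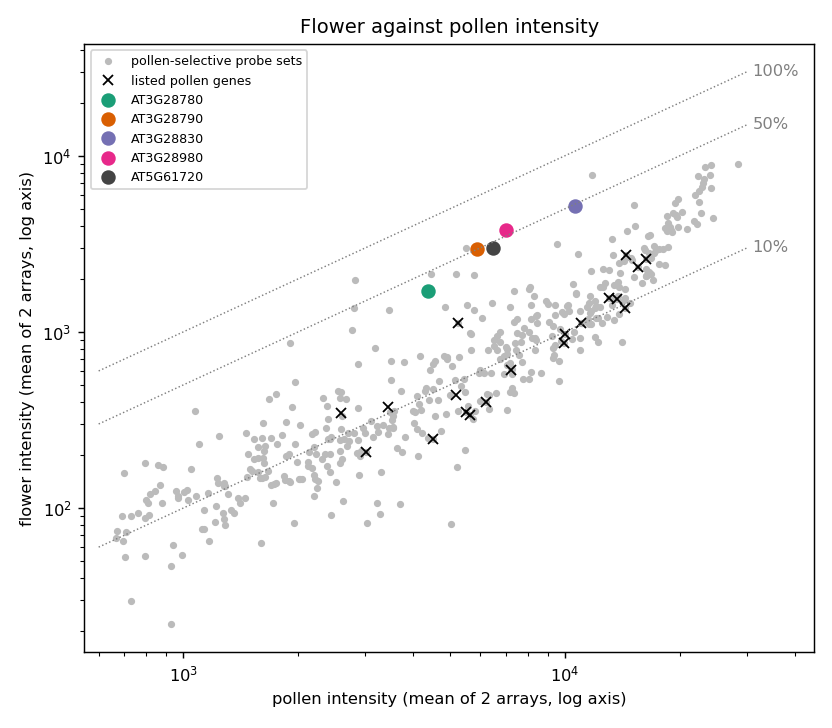
Mean flower intensity against mean pollen intensity (2 arrays each, both axes logarithmic) for the 455 pollen-selective probe sets in grey, 19 listed pollen genes as crosses and the 5 genes in colour, with dotted lines where flowers have 100%, 50% and 10% of the pollen intensity. The 5 genes lie between 39.0% and 54.2%, and these 19 listed pollen genes between 5.44% and 21.4%.

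The listed genes of the pollen vegetative cell that could be read had lower ratios. Of 27 such genes on a list, 19 had a probe set named for them alone, and all 19 were above the detection level in pollen. Their flower intensities were 5.44% to 21.4% of those in pollen, with a median of 9.72%. Listed genes on probe sets with several genes or no gene named were not read. The 3 highest were PRF5, a profilin that binds actin monomers, at 21.4%, STP11, a sugar transporter, at 18.8% and TUA1, an alpha-tubulin, at 16.03%. The 3 lowest were ANX1, a receptor-like kinase that keeps the pollen tube intact, at 5.44%, and the leucine-rich repeat extensins LRX10 and LRX8 of the cell wall at 5.997% and 6.37%. None of these 19 reached the 39.0% of AT3G28780 on the deposited values, and their ratios were not computed after other scaling of the arrays. MGH3, a histone of the sperm cells, was at 1470 in pollen and 150 in flowers, which is 10.2%. Of 5 genes on a sperm list, only MGH3 had a probe set named for it. Of 13 genes of anther and tapetum only A9, a tapetum gene, had a probe set named for it. It was at 204 in pollen and 85.5 in flowers, below the detection level in both, and the part of anther tissue in the flower values was not tested. None of 5 floral identity genes had a probe set named for it here.

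In the 6 remaining sample types the intensities were low. AT3G28780 ranged from 11.5 to 19.8 over these 12 arrays, AT3G28980 from 28.2 to 67.6, AT5G61720 from 29.8 to 86.6, AT3G28790 from 51.6 to 86.7 and AT3G28830 from 40.0 to 125. Siliques had the highest mean of the 6 in each gene. AT3G28830 had 112 and 125 in siliques, 86.3 and 85.1 in unpollinated pistils, 79.5 and 77.8 in ovules, 74.8 and 72.7 in leaves, 68.9 and 67.9 in seedlings and 42.5 and 40.0 in root hairs, and no 2 neighbours in this order overlapped. In AT3G28780, by contrast, siliques (18.6 and 17.6), pistils (12.6 and 19.8), seedlings (18.7 and 13.2), ovules (16.1 and 15.6) and root hairs (13.3 and 16.3) overlapped from each neighbour to the next, and the leaf arrays (11.5 and 12.2) lay just below.

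**Figure D3:**
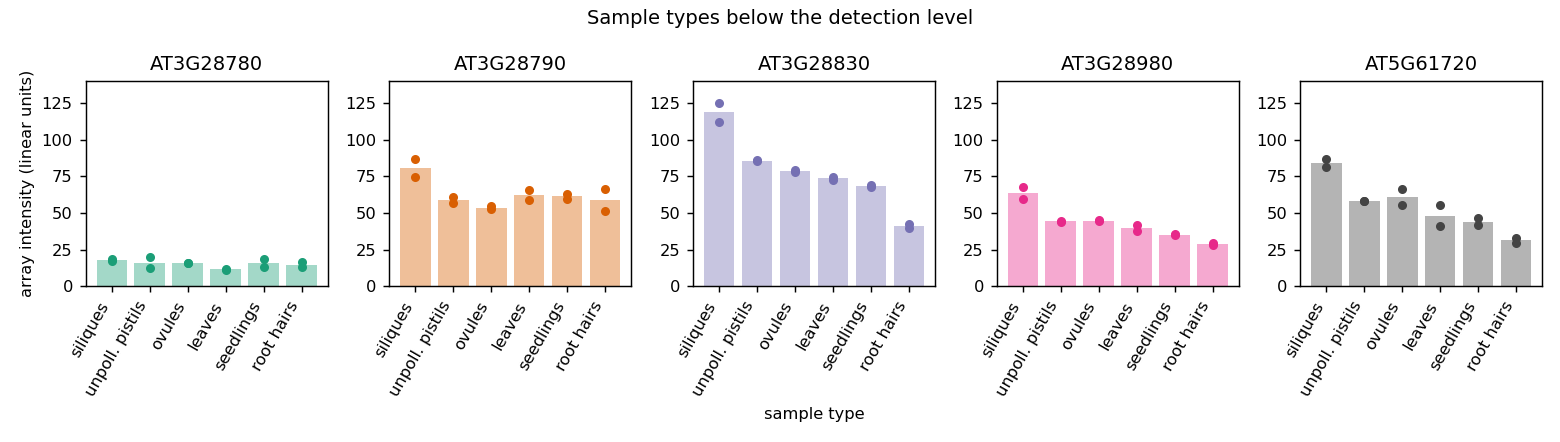
Intensity of each gene in the 6 sample types that lie below the detection level (linear axis from 0), with bars at the mean of 2 arrays and 1 point per array. AT3G28830 falls from 112 and 125 in siliques to 42.5 and 40.0 in root hairs, while AT3G28780 stays between 11.5 and 19.8.

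Siliques were compared with unpollinated pistils to ask whether the genes differ between the fruit and the pistil before pollination, but the arrays of these 2 sample types come from different studies, so that tissue and study cannot be told apart. With limma and Benjamini-Hochberg adjustment over all 22746 probe sets, 4 of the 5 genes were higher in siliques, beside 32.8% of all probe sets higher and 16.6% lower. The log2 difference was 0.27 for AT3G28830 (SE 0.07, adjusted p = 0.0044), 0.26 for AT5G61720 (adjusted p = 0.011), 0.22 for AT3G28980 (adjusted p = 0.017) and 0.22 for AT3G28790 (adjusted p = 0.043). For AT3G28780 it was 0.03, with a 95% interval of -0.12 to 0.18 (adjusted p = 0.74). The members' median was 0.22 and that of all probe sets 0.07. Both silique arrays lay above both pistil arrays in 4 of the 5 genes, as they did in 44.8% of all probe sets, and above the arrays of all 5 other low sample types in 4 of the 5, as in 10.9%. All of these values lie below the detection level, and the 4 calls fell to 1 after quantile normalization and to 0 after scaling to the 75th percentile. Over all probe sets the split of 7456 higher and 3780 lower became 4653 and 5131 after quantile normalization and 4176 and 6615 after scaling. Without silique replicate 2 the call of 1 of the 4 genes was left (AT3G28790), and without unpollinated pistil replicate 2 those of 2 (AT3G28830 and AT5G61720). AT3G28790 lost its call in 9 of the 16 cases in which 1 array was left out, with adjusted p-values of 0.050 to 0.24.

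Ovules, which were dissected from such pistils, did not differ detectably from them in any of the 5 genes. The log2 differences ran from -0.07 for AT3G28830 (95% interval -0.22 to 0.08) to 0.03 for AT5G61720 (-0.13 to 0.19), with adjusted p-values from limma of 0.48 to 0.97. At an unadjusted p under 0.05 the count was also 0 of 5. Of all probe sets, 35.3% were higher and 16.1% lower in ovules, and the split of 8038 higher and 3653 lower became 5657 and 3851 after quantile normalization and 4515 and 4947 after scaling to the 75th percentile.

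Root hairs, like pollen tubes, are cells that grow at the tip, and were compared with 4 tissues, taking the mean of siliques, ovules, unpollinated pistils and leaves. In limma, 3 of the 5 genes were lower in root hairs and 0 were higher, beside 69.0% of all probe sets lower and 19.2% higher. The log2 difference was -0.50 for AT3G28830 (SE 0.06, adjusted p = 5.3e-07), -0.38 for AT5G61720 (adjusted p = 2.9e-05) and -0.25 for AT3G28980 (adjusted p = 0.00066). It was -0.05 for AT3G28790 (95% interval -0.19 to 0.09) and -0.01 for AT3G28780 (-0.13 to 0.11). The median of all probe sets in this comparison was -0.50, and that of the 5 genes -0.25. Root hairs lay below every array of the 5 other low sample types in 3 of the 5 genes, as in 57.3% of all probe sets. After quantile normalization 0 of the 5 genes were lower and 1 was higher, and after scaling to the 75th percentile 0 were lower and 2 higher. Over all probe sets, 4365 higher and 15688 lower became 9551 and 9003 after quantile normalization and 9733 and 8999 after scaling.

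Against whole seedlings, 1 of the 5 genes was lower in root hairs, beside 64.4% of all probe sets lower and 18.5% higher. This was AT3G28830, with a log2 difference of -0.31 (SE 0.07, adjusted p = 0.00084). AT5G61720 had -0.17 (95% interval -0.33 to -0.0039, adjusted p = 0.055), AT3G28980 -0.09, AT3G28790 -0.03 and AT3G28780 -0.02, and the median of all probe sets was -0.43. Both root hair arrays lay below both seedling arrays in 3 of the 5 genes, as in 70.2% of all probe sets. After quantile normalization and after scaling to the 75th percentile all 5 differences were above 0, and the split over all probe sets of 4209 higher and 14643 lower became 9699 and 7632, and 9312 and 8204. Among the 19 pollen genes of the list with a named probe set, 8 were higher and 5 lower in root hairs than in the 4 tissues. Against seedlings, 8 were higher and 2 lower. The paper had found PRF5, SYP131, ROPGEF11 and ROPGEF12 of this list enriched in root hairs and pollen on these arrays. The counts are therefore a description, and were taken on the deposited values alone.

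**Figure D4:**
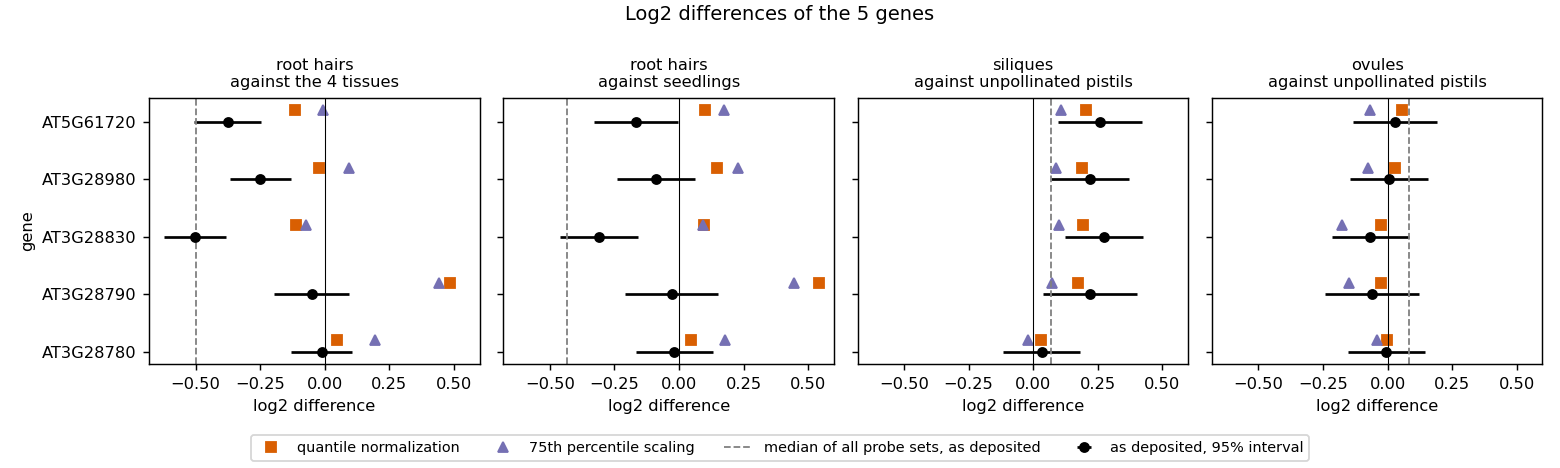
Log2 differences of the 5 genes in the 4 comparisons, with black points and 95% intervals for the values as deposited, squares after quantile normalization, triangles after scaling to the 75th percentile and a dashed line at the median of all probe sets. In root hairs against seedlings the deposited values lie between -0.31 and -0.02, and all squares and triangles lie above 0.

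The profiles of the 5 genes over the 8 sample types were alike. Pearson correlations between pairs of them, over the log2 means of 8 sample types, were 0.996 to 1.000, and these are set by the high values in pollen and flowers that all 5 share. Over the 6 low sample types alone the correlations ran from 0.43 to 0.99, with 0.97 to 0.99 between AT3G28830, AT3G28980 and AT5G61720. Over the same 6 sample types, the median intensity of the arrays had a correlation with these profiles of 0.84 for AT3G28830, 0.70 for AT3G28980 and 0.76 for AT5G61720. It was 0.30 and 0.27 for AT3G28780 and AT3G28790. The part of array scale in the low profiles was not tested.

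Among probe sets of 1 named gene other than the 5, the profile most like their mean was that of AT5G07420 (Pearson r 0.999 over 8 sample types), followed by AT2G19000 and AT4G00350 (both 0.998) and AT4G18395 (0.996). Their flower intensity was 40.8% of the pollen value for AT5G07420, 45.3% for AT4G00350 and 48.7% for AT4G18395, within the 39.0% to 54.2% of the 5 genes, while AT2G19000 lay above them at 70.0%. The next 6, AT3G01270, AT3G06830, AT3G01240, AT5G07430, AT4G02250 and AT5G47000, had correlations of 0.994 to 0.995 and flower intensities of 19.9% to 37.1%. In all, 41 probe sets, with the 5 genes among them, had a correlation over 0.99, and all 41 were pollen-selective. These correlations are set by the pollen and flower values, by which the 5 genes were chosen. A likeness to them thus largely entails being pollen-selective, and the count is a description.

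The genes AT3G28780, AT3G28790, AT3G28830 and AT3G28980 lie on chromosome 3 and AT5G61720 on chromosome 5. In the RefSeq gene order of TAIR10.1, 1 annotated gene stands between AT3G28780 and AT3G28790, 3 stand between AT3G28790 and AT3G28830, and 40 between AT3G28830 and AT3G28980. From AT3G28750 to AT3G28990, 53 genes are annotated and 14 have a probe set of their own, 4 of them members. Of the 10 others, 2 were pollen-selective, beside 2.00% of all probe sets. AT3G28750 was at 28412 in pollen and 8940 in flowers (31.5%), and AT3G28840 at 4897 and 698 (14.3%). A probe set shared by AT3G28810 and AT3G28820, which lie between AT3G28790 and AT3G28830, was pollen-selective too, at 7331 in pollen and 1703 in flowers (23.2%), and cannot be split between the 2 genes. AT3G28850, listed as a glutaredoxin family protein, was also highest in pollen, at 2288, but stood at 1397 in root hairs. The 4 members of this stretch, at 39.0% to 54.2%, had higher percentages than AT3G28750, AT3G28840, AT3G28850 and the shared probe set. As the members were chosen for this ratio, the order is a description. Whether any of these neighbours belongs to the same family was not tested. AT3G28770, next to AT3G28780, was also highest in pollen, at 166 against 74.5 in flowers (45.0%), but lay below the detection level in both. The other 6 neighbours with a probe set of their own, AT3G28760, AT3G28870, AT3G28900, AT3G28940, AT3G28950 and AT3G28960, were at 18.4 to 190 in pollen, below the detection level, and each was highest in another sample type.

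**Figure D5:**
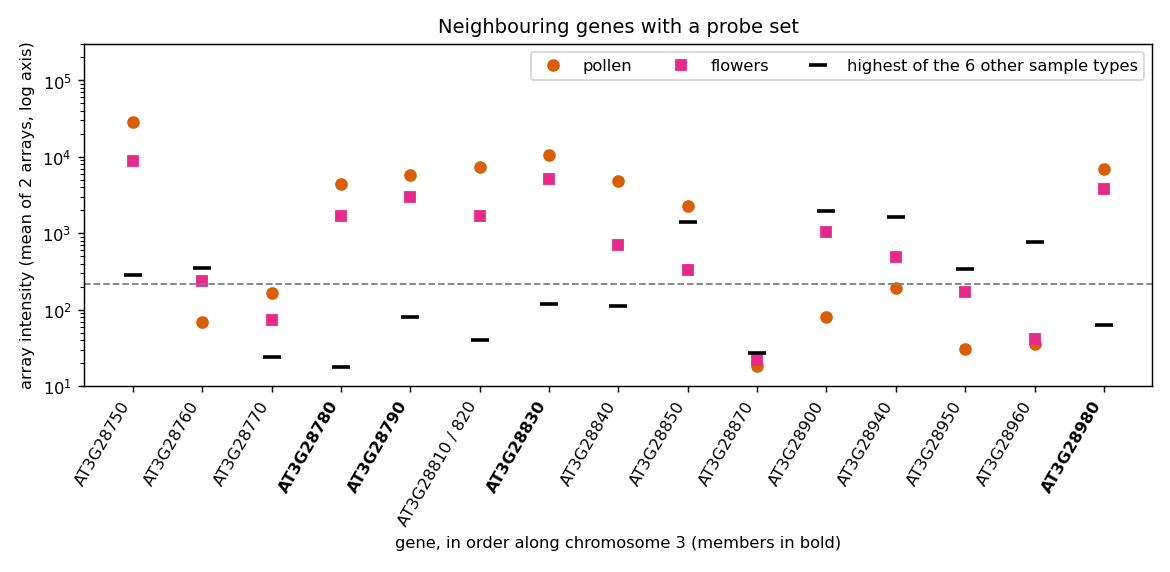
Mean intensity (2 arrays, log axis) of the probe sets from AT3G28750 to AT3G28980 in gene order, in pollen, in flowers and in the highest of the 6 other sample types, with members in bold and a dashed line at the detection level. AT3G28750, the shared probe set of AT3G28810 and AT3G28820, and AT3G28840 are high in pollen between and beside the members, while AT3G28900 to AT3G28960 are not.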

How the data were processed

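The deposited values are linear intensities of ATH1 arrays. The authors computed them as model-based expression in dChip, with all 16 arrays normalized together, and GCOS 1.4 and MAS5 appear among the tools in the submitters' notes on processing. No probe-level step was repeated. Of 22810 probe sets, 64 controls were left out. Values were taken as log2(intensity + 71.9), adding the 20th percentile of an array (median of the 16), and fitted in limma 3.58.1 (R 4.3.3) with a mean for each of 8 sample types, a trend, residual degrees of freedom of 8 and Benjamini-Hochberg adjustment over 22746 probe sets, at an adjusted p under 0.05. The fit was tested on simulated data. Precision is limited by there being 2 arrays of each kind, and a p-value reflects the spread of what the labels call biological replicates.

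Names came from the platform annotation (13436 probe sets) and the paper's tables (1319), while 503 probe sets have several genes and 7552 none here. The 5 genes and the lists were chosen with earlier results of these data known. Beside the 5, the text names annotated neighbours with a probe set, the 10 most similar profiles and, of each list, the 3 highest and 3 lowest ratios. Promoter and protein sequences were not analysed here. The fit was repeated with quantile-normalized arrays, with a common 75th percentile, with a pseudocount of 1 or 4 times as large, on brighter probe sets alone, with no trend, on the compared arrays alone, with a replicate block and without each array in turn. Plots used matplotlib 3.10.9 under Python 3.11.15.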

Additional observations from a re-analysis of the deposited data

How the results depend on the processing

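All member values outside pollen and flowers lie below the detection level, and several of their directions changed with the scaling of the arrays. Against the 4 tissues, root hairs had 4365 probe sets higher and 15688 lower as deposited, 9551 and 9003 after quantile normalization (members 1 higher, 0 lower), 9733 and 8999 after scaling to the 75th percentile (members 2 higher, 0 lower) and 2876 and 8659 without dim probe sets. The sign turned after quantile normalization for AT3G28780 (0.047) and AT3G28790 (0.49), and after scaling for AT3G28780 (0.19), AT3G28790 (0.44) and AT3G28980 (0.094). Against seedlings, the counts of 4209 and 14643 became 9699 and 7632 (members 1 higher, 0 lower) and 9312 and 8204 (members 3 higher, 0 lower), and 8128 were lower without dim probe sets. Quantile normalization gave 0.047 for AT3G28780, 0.54 for AT3G28790, 0.10 for AT3G28830, 0.15 for AT3G28980 and 0.10 for AT5G61720, and scaling 0.18, 0.45, 0.094, 0.23 and 0.18 (same order). The members lower were 3 with a pseudocount of 1 and 2 without dim probe sets, without a trend and with only the arrays compared. Dim probe sets were those with a mean over all 16 arrays below the detection level of 216. The members pass this filter only through their pollen and flower values, so it is no check on their low values. In siliques against pistils, 7456 higher and 3780 lower became 4653 and 5131 after quantile normalization (members higher 1), and 4176 and 6615 after scaling (members higher 0), while 4 times the pseudocount left 1 member. Scaling turned AT3G28780 to -0.022. In ovules against pistils 8038 higher and 3653 lower became 4515 and 4947 after scaling, which also gave -0.075 for AT3G28980 and -0.069 for AT5G61720, and a pseudocount of 1 gave 0.0020 for AT3G28780. The cause was not tested.

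Leaving out 1 array gave 3 members lower in root hairs against the 4 tissues in every case, 1 to 2 against seedlings and 1 to 4 members higher in siliques against pistils. In root hairs AT3G28780 ranged from -0.036 to 0.014 and AT3G28790 from -0.13 to 0.031 against the 4 tissues, and from -0.064 to 0.026 and -0.11 to 0.054 against seedlings. In siliques AT3G28780 ranged from -0.027 to 0.092, and in ovules from -0.064 to 0.055, with -0.00074 to 0.014 for AT3G28980 and -0.029 to 0.086 for AT5G61720. The flower percentages after quantile normalization were 41.9%, 67.3%, 92.9%, 82.6% and 63.5% (AT3G28780, AT3G28790, AT3G28830, AT3G28980, AT5G61720), and after scaling 12.3%, 15.96%, 15.4%, 17.1% and 14.6%. With 4 times the pseudocount AT3G28780 had 42.8% and AT5G61720 48.5%. Leaving out 1 array gave 37.4% to 40.6%, 47.7% to 53.7%, 47.2% to 50.1%, 51.8% to 56.6% and 45.6% to 46.8%.

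In their labels, arrays with the same replicate number share only that number. The deviations of replicates correlated at -0.37 to 0.19 over 28 pairs of sample types, with 2 over 0.1. With 2 arrays of each kind this cannot exclude a shared batch. With a replicate block, 4347 probe sets were higher and 15641 lower in root hairs against the 4 tissues, with 3 members lower, and no call of a member changed in the 4 comparisons.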

Other observations

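The 5 genes were not alone at the upper end of the pollen-selective probe sets. Of the 12 with a flower intensity at or above the 39.0% of AT3G28780, 7 were not members, and they were picked out after their values had been seen. The 4 named ones were AT2G19000 at 70.0%, AT4G18395 at 48.7%, AT4G00350 at 45.3% and AT5G07420 at 40.8%. The other 3 are probe sets with no single gene named here, at 66.0%, 54.7% and 47.7%. Over the 8 sample types, the profile most like the mean of the 5 genes came from a probe set with no single gene named.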
